A study of Homo sapiens with 6 samples.

Results

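The genes described here encode the HSP90 and HSP110 chaperones, the small heat shock proteins HSPB1 and HSPB8, the mitochondrial chaperonin pair HSPD1 and HSPE1, and the heat shock transcription factors HSF1 and HSF2. Their probes were found by gene symbol in the platform annotation of the deposited bead table. Of 48803 probes on the array, 16 carried the symbol of 9 of the 10 genes. HSF2 had no listed probe and was not analysed here. The RNA came from A549, an established human lung adenocarcinoma cell line, measured on 6 Illumina Human-6 bead arrays. The control group was 3 arrays of A549 cells labelled control, and the treated group 3 arrays of A549 cells exposed to 160 µg/ml of DAMTC over 24 h. DAMTC is the code name in the labels, which do not say whether control cells received a vehicle. The design text calls the triplicates biological but names no separate cultures, and p-values measure only the spread among the arrays, which may be technical. All 6 arrays lay on 1 BeadChip with each group in neighbouring positions, and an effect of position cannot be told apart from that of DAMTC.

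HSP90 proteins fold and hold signalling proteins such as kinases and steroid receptors, with HSP90AA1 the stress-inducible and HSP90AB1 the constitutive cytosolic form and TRAP1 the mitochondrial one. HSPH1 (HSP110) exchanges nucleotide on HSP70, small heat shock proteins bind unfolded proteins without ATP, and HSPD1 with its lid HSPE1 folds proteins in the mitochondrial matrix. When unfolded proteins build up, HSF1 is released from chaperones, forms trimers and binds heat shock elements, inverted repeats of nGAAn in the promoters of many chaperone genes.

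No heat shock protein probe listed here passed the test with DAMTC. Of the 16 probes, 12 were detected on all 6 arrays and tested, and 0 of them were higher and 0 lower at a Benjamini-Hochberg adjusted p under 0.05 with limma, with 0 at an unadjusted p under 0.05. Over all 17009 probes tested, 23.4% passed, 11.7% higher and 11.6% lower, and 14%, 14.1% and 13.6% passed without DAMTC replicate 1, 2 and 3. Of the 17009, 6183 had an unadjusted p under 0.05 with limma. Among the 974 probes at least as bright as the HSPH1 probe, a group that holds 9 of the 12, 7.8% passed. The groups of arrays did not overlap for 0 of the 12 probes, against 40.1% of all probes (20% higher and 20.1% lower) and 30.9% of the equally bright ones. The 12 differences ran from -0.56 for HSPB1 to 0.49 for HSP90AB1 on the log2 scale, a span that holds 52.7% of all probes. Their median was 0.07, and that of all probes tested was -0.01. In the same fit, 10 of 23 tested genes of a list of other HSF1 targets rose and 2 fell. Over all genes, 12.3% rose and 12.9% fell. Among the rises were the chaperone genes HSPA1B, HSPA4L, DNAJB1 and BAG3. Their control means, 9.84, 7.61, 9.17 and 9.39, lay below the 12.22 of the HSPH1 probe. The counts of probes and targets are thus not matched for brightness, whose part was not tested. The list was chosen with earlier results of these data known.

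The arrays had between 16329 and 17835 probes detected above background, fewer on each DAMTC array than on any control array (exact two-sided permutation p = 0.1, the smallest that 3 against 3 arrays allow). Control replicate 1 stood apart on the second principal component (22.7% of the variance), with a score of 68.05 against -43.06 and -24.32 for control replicates 2 and 3. The plot of differences with each array left out gives each tested heat shock protein probe without it, and the text gives some of these values. Of 16 lung epithelial markers on the array, 9 were detected on all 6 arrays, among them KRT8, KRT18 and EPCAM, and SFTPB, NAPSA and AKR1C1 on none. Of 18 markers of other cell types, 11 were detected on no array, PTPRC, COL3A1 and CDH5 among them, while CD14 and PECAM1 were detected on all 6. Summed over the tested members, normalized intensity ran from 38750 to 54198 in controls and from 37818 to 49417 with DAMTC for the epithelial list, and from 322 to 411 and from 298 to 528 for the other. In these lists CDH1 (E-cadherin) fell (log2 difference -1.64 ± 0.42 SE, adjusted p = 0.0230). The globin gene HBA1, detected on 0 of 3 control arrays, measured 4.80 ± 0.13 in controls and 6.11 ± 0.78 with DAMTC (log2, SD, n = 3). By these means it was at least 1.79-fold higher, a bound for the main processing only. The log2 difference was 0.53 without background correction and 0.77 with an offset of 50. HBA1 passed the detection filter only through the DAMTC arrays, so no test of it is read. CDH1 lost its call if control replicate 2, control replicate 3 or DAMTC replicate 1 was left out. The epithelial list had 3 falls without control replicate 1. The part of these markers in the results below was not tested.

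The promoters are shown with exact matches to the inverted repeats that HSF1 is known to bind. Imperfect repeats were not searched. RefSeq windows (GRCh38.p14) from 250 bases before to 50 bases after a start site were found for 9 of the 10 genes, 14 windows in all. They were searched on both strands for GAANNTTCNNGAA and TTCNNGAANNTTC, and for the shorter GAANNTTC and TTCNNGAA that each of these contains. The long form stood in 3 of the 14 windows, and in 0.49% of all 35116 windows. These 3 belong to 3 of the 9 genes, HSP90AA1, HSP90AB1 and HSPD1. This HSPD1 window ends at 197500090, and that of the neighbouring HSPE1 begins at 197500129. The HSPD1 match therefore could not be counted for HSPE1. The short form stood in 5 of the 14 windows, and in 13.5% of all windows. These 5 belong to 5 of the 9 genes, with HSPB1 and HSPB8 added. In the sequences below, capitals mark the long form or, where a window has none, the short form.
HSP90AA1, chr14:102086995-102087294 (- strand): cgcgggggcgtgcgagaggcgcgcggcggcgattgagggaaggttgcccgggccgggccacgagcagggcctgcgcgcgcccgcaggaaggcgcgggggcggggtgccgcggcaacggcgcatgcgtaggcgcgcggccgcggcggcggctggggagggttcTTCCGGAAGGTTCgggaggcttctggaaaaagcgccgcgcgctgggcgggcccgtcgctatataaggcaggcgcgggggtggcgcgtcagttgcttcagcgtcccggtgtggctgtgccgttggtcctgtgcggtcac
HSP90AB1, chr6:44247693-44247992 (+ strand): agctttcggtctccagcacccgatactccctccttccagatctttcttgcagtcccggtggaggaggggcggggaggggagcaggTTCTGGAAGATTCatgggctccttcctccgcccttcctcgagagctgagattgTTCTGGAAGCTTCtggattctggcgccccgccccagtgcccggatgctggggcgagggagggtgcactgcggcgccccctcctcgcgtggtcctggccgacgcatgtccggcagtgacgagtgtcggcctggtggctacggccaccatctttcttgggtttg
HSPD1, chr2:197499791-197500090 (- strand): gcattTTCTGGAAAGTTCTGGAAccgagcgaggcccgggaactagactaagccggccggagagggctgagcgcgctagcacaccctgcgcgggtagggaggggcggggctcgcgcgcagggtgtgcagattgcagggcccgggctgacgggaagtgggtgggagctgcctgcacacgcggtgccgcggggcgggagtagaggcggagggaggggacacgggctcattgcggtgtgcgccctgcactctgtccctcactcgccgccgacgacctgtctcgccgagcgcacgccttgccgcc
HSPB1, chr7:76302423-76302722 (+ strand): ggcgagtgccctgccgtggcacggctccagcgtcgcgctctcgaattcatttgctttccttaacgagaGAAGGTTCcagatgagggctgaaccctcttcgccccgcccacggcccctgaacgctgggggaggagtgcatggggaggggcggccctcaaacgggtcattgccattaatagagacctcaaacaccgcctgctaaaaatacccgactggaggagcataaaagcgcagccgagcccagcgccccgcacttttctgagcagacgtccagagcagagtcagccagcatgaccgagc
HSPA1B, chr6:31827488-31827787 (+ strand): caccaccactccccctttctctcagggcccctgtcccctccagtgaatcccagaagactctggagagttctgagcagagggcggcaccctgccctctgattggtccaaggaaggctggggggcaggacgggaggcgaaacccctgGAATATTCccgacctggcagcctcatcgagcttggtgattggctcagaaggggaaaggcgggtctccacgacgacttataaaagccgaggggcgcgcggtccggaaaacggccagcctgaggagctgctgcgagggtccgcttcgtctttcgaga
DNAJB1, chr19:14518348-14518647 (- strand): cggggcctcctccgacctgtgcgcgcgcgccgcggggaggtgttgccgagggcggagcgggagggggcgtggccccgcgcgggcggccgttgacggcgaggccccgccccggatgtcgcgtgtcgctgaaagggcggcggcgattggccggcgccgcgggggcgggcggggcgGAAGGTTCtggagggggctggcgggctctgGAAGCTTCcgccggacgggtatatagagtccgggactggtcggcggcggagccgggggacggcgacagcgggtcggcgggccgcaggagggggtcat
BAG3, chr10:119651130-119651429 (+ strand): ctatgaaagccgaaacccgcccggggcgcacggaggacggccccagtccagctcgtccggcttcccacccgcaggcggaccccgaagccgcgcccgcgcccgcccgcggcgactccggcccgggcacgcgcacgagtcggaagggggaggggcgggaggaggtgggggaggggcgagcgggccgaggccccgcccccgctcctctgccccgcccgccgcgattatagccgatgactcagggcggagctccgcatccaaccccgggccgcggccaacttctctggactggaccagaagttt
In the printed HSP90AA1 window the long form began 88 bases before the start site, by the first match. In the printed HSP90AB1 and HSPD1 windows it began 165 and 245 bases before the start site. HSP90AA1 and HSPD1 have 2 windows each and HSP90AB1 has 3, and their windows not printed held neither form. The printed windows of these genes lie inside the listed span of the gene. The HSP90AB1 window held it 2 times apart, and the HSPD1 window 2 times with overlap. The printed HSPA1B and DNAJB1 windows belong to other HSF1 targets whose transcripts rose, and they held only the short form. DNAJB1 has 3 windows, not all of which held it. The window of BAG3, which also rose, held neither form and is printed without capitals. Of 23 listed targets with a window, 6 had the long form and 14 the short form, in 6 and 16 of their 37 windows. Of the 6 targets with the long form, DNAJA1 rose, SERPINH1 and RBM23 fell, and HSPA8, by its brightest probe, and CHORDC1 did not pass. HSPA6 was also called higher, but was detected on only 2 of 3 control arrays. A match is a run of letters, not a measured binding site. A window without an exact match is not shown to lack a site.

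The cytosolic HSP90 genes lay slightly higher with DAMTC, within the spread of the arrays. HSP90AA1 (chromosome 14, 102080742 to 102139749, GRCh38.p14) has 3 probes, and HSP90AB1 (chromosome 6, 44246194 to 44253883) has 1. As normalized log2 intensity, the HSP90AB1 probe ILMN_1673711 read 13.33, 12.47 and 12.72 in control replicates 1 to 3 and 13.06, 13.53 and 13.41 in DAMTC replicates 1 to 3. Control replicate 1 was as high as the DAMTC arrays, and the other controls lay below all 3 of them. The log2 difference was 0.49 ± 0.29 (SE, n = 3 per group, adjusted p = 0.267), a 1.40-fold higher mean with a 95% interval from -0.17 to 1.15. Without control replicate 2 it was 0.30, and without control replicate 1 it was 0.73 with adjusted p = 0.0499, within a range of 0.0300 to 0.553 over 16 alternatives, and 31.9% of all probes passed in that fit.

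HSP90AA1 probe ILMN_1691097 read 13.07, 12.42 and 12.96 in controls and 12.95, 13.34 and 13.34 with DAMTC, and ILMN_2373515 read 14.80, 14.16 and 14.47 against 14.44, 14.62 and 14.74. In both, control replicate 2 was the lowest of the 6 arrays and the groups overlapped. Their differences were 0.39 ± 0.27 (adjusted p = 0.336) and 0.12 ± 0.25 (adjusted p = 0.782). The remaining probe, ILMN_1687546, is annotated to the longer HSP90AA1 transcript and was dim, at 5.90, 5.59 and 6.10 in controls and 5.44, 6.67 and 6.44 with DAMTC. DAMTC replicate 1 gave the lowest value of all 6 arrays and DAMTC replicate 2 the highest, and the difference was 0.32 ± 0.35 (adjusted p = 0.563). It was 0.69 without DAMTC replicate 1 and 0.077 without DAMTC replicate 2. The difference of the brightest HSP90AA1 probe minus that of HSP90AB1 was -0.37, negative with each array left out (-0.45 to -0.28). The within-array differences of the groups did not overlap, and the exact permutation p was 0.1, the smallest possible here (0.267 adjusted over the 4 pairs compared). This pair rests on 1 HSP90AA1 probe. The other bright one, ILMN_1691097, differed by 0.39, near the 0.49 of HSP90AB1, and was not compared in this way.

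TRAP1 (chromosome 16, 3658037 to 3717524), the mitochondrial HSP90, showed the smallest spread of these genes. Its probe read 9.44, 9.43 and 9.62 in controls and 9.43, 9.33 and 9.31 with DAMTC. The lowest control lay just under the highest DAMTC array, and the difference was -0.14 ± 0.22 (adjusted p = 0.695, 95% interval from -0.64 to 0.36). The difference of HSP90AB1 minus that of TRAP1 was 0.63 (exact permutation p = 0.2, 0.267 adjusted over the pairs).

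HSPH1 (chromosome 13, 31134973 to 31162388), the HSP110 that serves HSP70, had group means of 12.22 in controls and 12.24 with DAMTC. It read 12.40, 12.20 and 12.07 in controls and 11.97, 12.42 and 12.32 with DAMTC. The ranges covered each other almost fully, and the difference was 0.01 ± 0.24 (adjusted p = 0.979). With each array scaled to its median, the sign turned (-0.09). Its 95% interval, -0.54 to 0.56, leaves out a 2-fold change in either direction. The same held for 8 of the 12 tested probes. The intervals of HSPB1, HSP90AB1 and the HSP90AA1 probes ILMN_1691097 and ILMN_1687546 reached past 1 or -1.

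**Figure D1:**
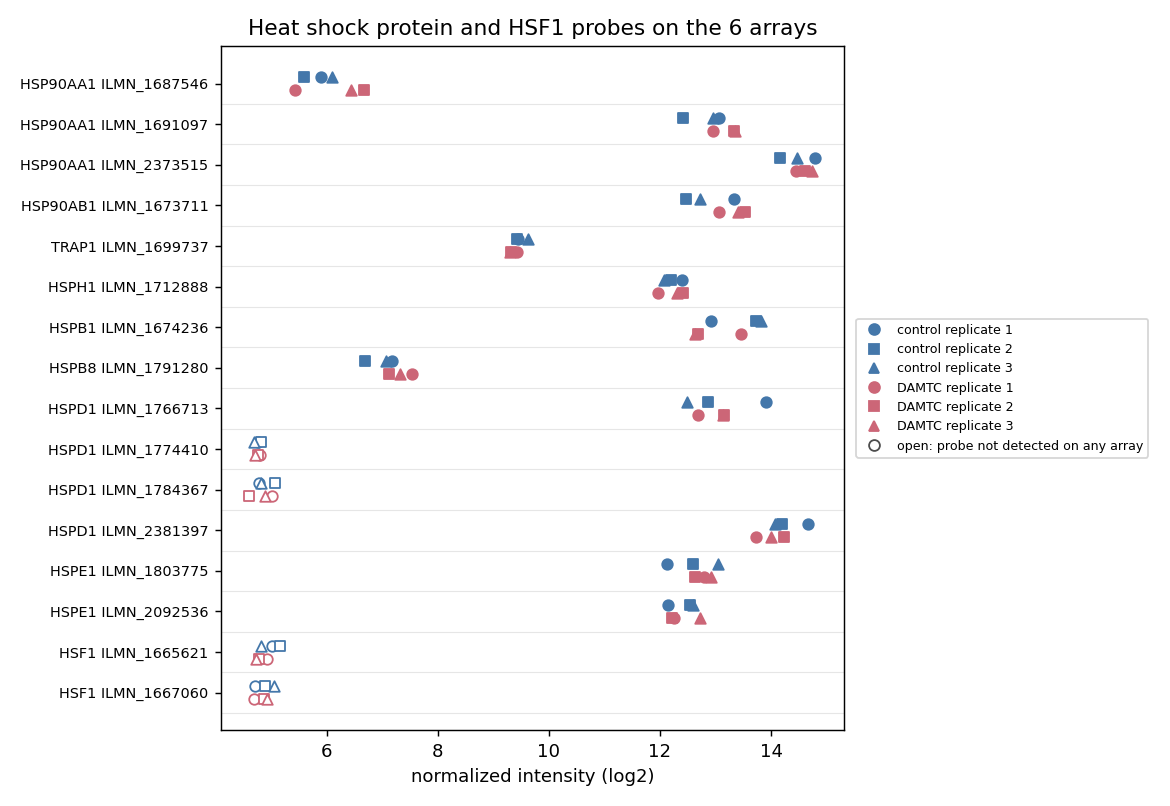
Normalized intensity on the log2 scale (x axis) of the 16 probes (y axis) on each array, with controls in blue above DAMTC in red and the replicate given by the symbol. Open symbols are probes not detected on any array, and the groups overlap for each of the 12 detected probes.

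HSPB1 (HSP27; chromosome 7, 76302673 to 76304292) had the lowest difference of the 12 probes. It read 12.92, 13.73 and 13.82 in control replicates 1 to 3 and 13.47, 12.69 and 12.64 in DAMTC replicates 1 to 3. Within each group replicate 1 stood apart and toward the other group, so the groups overlapped. As deposited, before normalization, the bead intensities were 6852, 15232 and 16795 in controls and 10693, 6967 and 6480 with DAMTC. The bead standard errors of the 12 tested probes were 2.59% to 5.94% of the intensity, from 27 to 54 beads, which is small beside this spread between arrays. The log2 difference was -0.56 ± 0.34 (adjusted p = 0.281). It was -0.84 without control replicate 1, where it did not pass, and -0.90 with adjusted p = 0.0153 when arrays were weighted by their quality, within a range of 0.0153 to 0.558 over 16 alternatives.

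HSPB8 (chromosome 12, 119178931 to 119194746), a small heat shock protein that works with BAG3 in selective autophagy, read 7.19, 6.70 and 7.08 in controls and 7.54, 7.12 and 7.33 with DAMTC. Only DAMTC replicate 2 lay inside the control range. The difference was 0.34 ± 0.25 (adjusted p = 0.373). It was 0.0094 with each array scaled to its median, 0.13 in the deposited series matrix, 0.18 without background correction and 0.20 without control replicate 2. BAG3 itself rose by 1.83 ± 0.23 (adjusted p = 0.00106). The difference of HSPB1 minus that of HSPB8 was -0.90 (exact permutation p = 0.2, 0.267 adjusted over the pairs), and -1.28 to -0.63 with each array left out. Of 9 other small heat shock proteins listed, 8 were on the array and 1 was bright enough to be tested. That was HSPB2, at 0.32 ± 0.26 (adjusted p = 0.428).

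HSPD1 (HSP60) and HSPE1 (HSP10) lie side by side on chromosome 2, at 197486584 to 197500274 and 197500379 to 197503449, and are read outward from a shared stretch. HSPD1 probe ILMN_2381397 read 14.66, 14.20 and 14.07 in controls and 13.73, 14.24 and 14.01 with DAMTC, and ILMN_1766713 read 13.90, 12.87 and 12.48 against 12.69, 13.16 and 13.13. Control replicate 1 was the highest array for both. The differences were -0.32 ± 0.27 (adjusted p = 0.434) and -0.09 ± 0.37 (adjusted p = 0.894). Without control replicate 1 the latter was 0.32 with adjusted p = 0.385. The other HSPD1 probes, ILMN_1774410 and ILMN_1784367, were not well above background on any array, with detection p-values from 0.113 to 0.910, although ILMN_1784367 is annotated to the same transcript as the bright ones.

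HSPE1 probe ILMN_1803775 read 12.13, 12.60 and 13.04 in controls and 12.80, 12.63 and 12.92 with DAMTC, and ILMN_2092536 read 12.14, 12.55 and 12.60 against 12.25, 12.22 and 12.72. Here control replicate 1 was the lowest array for both, opposite to its place for HSPD1. The differences were 0.20 ± 0.28 (adjusted p = 0.674) and -0.03 ± 0.26 (adjusted p = 0.946). The difference of HSPD1 minus that of HSPE1, by their brightest probes, was -0.52 (exact permutation p = 0.4, also after adjustment over the pairs). It was -0.11 without control replicate 1 and -0.87 without control replicate 3. RefSeq names 22 pseudogenes after HSPD1, 28 after HSPE1 and 2 after HSPB1. Probe sequences were not used here, so signal from such copies cannot be told apart.

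HSF1 (chromosome 8, 144291604 to 144314720), the factor that switches on the heat shock response, was not well above background by its listed probes. Its probes ILMN_1665621 and ILMN_1667060 were detected on 0 of 6 arrays, with lowest detection p-values of 0.0738 and 0.127. The deposited intensities ran from 112 to 156, and no fold is given. These probes do not settle the level of the HSF1 transcript. HSPD1 probe ILMN_1784367 was likewise undetected, beside bright probes annotated to the same transcript. The activity of HSF1 is known to be set largely after translation.

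**Figure D2:**
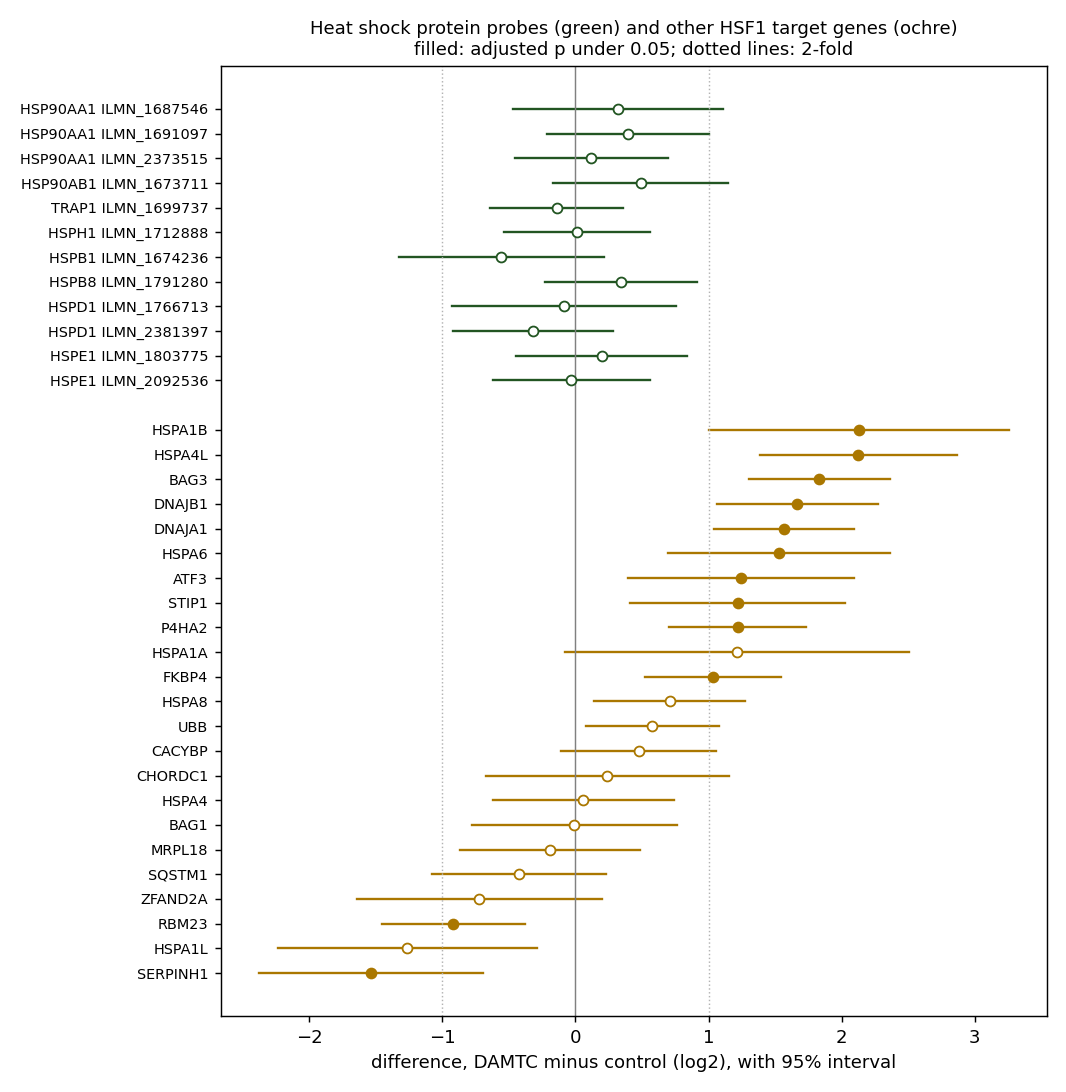
Log2 difference of DAMTC minus control with its 95% interval (x axis) for the 12 tested heat shock protein probes in green and the 23 tested genes of the list of other HSF1 targets in ochre (y axis). Filled points passed at adjusted p under 0.05: none of the green ones, and 10 ochre ones to the right and 2 to the left.

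Several other HSF1 targets rose with DAMTC, among them inducible HSP70 and HSP40 genes. Of 27 listed, 25 were on the array and 23 were tested: 10 rose, 2 fell and 11 did not pass, with a median of 0.71. The 10 include HSPA6, detected on 2 of 3 control arrays, which passed the detection filter only through the DAMTC arrays. With detection required on all 6 arrays, 9 rose. This list and those below were chosen with earlier results of these data known, so their counts only describe. Over all 10779 genes, each by its brightest probe, 12.3% rose and 12.9% fell, with a median of -0.04. HSPA1B, an inducible HSP70, read 8.78, 10.55 and 10.19 in controls and 12.12, 11.24 and 12.56 with DAMTC. Every DAMTC array lay above every control, and the rise was 4.38-fold (2.13 ± 0.50, adjusted p = 0.0154). It lost its call without DAMTC replicate 1 (adjusted p = 0.0581) or DAMTC replicate 3 (0.0673) and with dim probes kept (0.0733). HSPA1A, a near-identical gene that shares sequence with HSPA1B, differed by 1.21 ± 0.57 (adjusted p = 0.161), so the split between them is uncertain.

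HSPA4L, which like HSPH1 belongs to the HSP110 branch, rose 4.36-fold (2.13 ± 0.33, adjusted p = 0.00238). DNAJB1, the HSP40 that delivers clients to HSP70, read 8.90, 8.98 and 9.63 in controls and 10.89, 10.75 and 10.88 with DAMTC, a 3.18-fold rise (1.67 ± 0.27, adjusted p = 0.00290). The groups were separate by more than 1 log2 unit. BAG3, a co-chaperone of HSP70 and HSPB8, read 9.19, 9.31 and 9.65 against 11.18, 11.27 and 11.21. HSPA4L, DNAJB1 and BAG3 each stayed past the threshold in 16 of 16 alternatives. HSPA8, the constitutive HSP70, differed by 0.71 ± 0.25 (adjusted p = 0.0718), while a second probe of it passed (0.85 ± 0.24, adjusted p = 0.0344). The genes that fell were SERPINH1, the collagen chaperone of the ER, and RBM23. The rises numbered 6 without DAMTC replicate 1 and 5 without DAMTC replicate 3, and the falls numbered 4 without control replicate 1, 0 with control replicate 3 or DAMTC replicate 1 left out, and 1 in each of the other fits with an array left out.

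**Figure D3:**
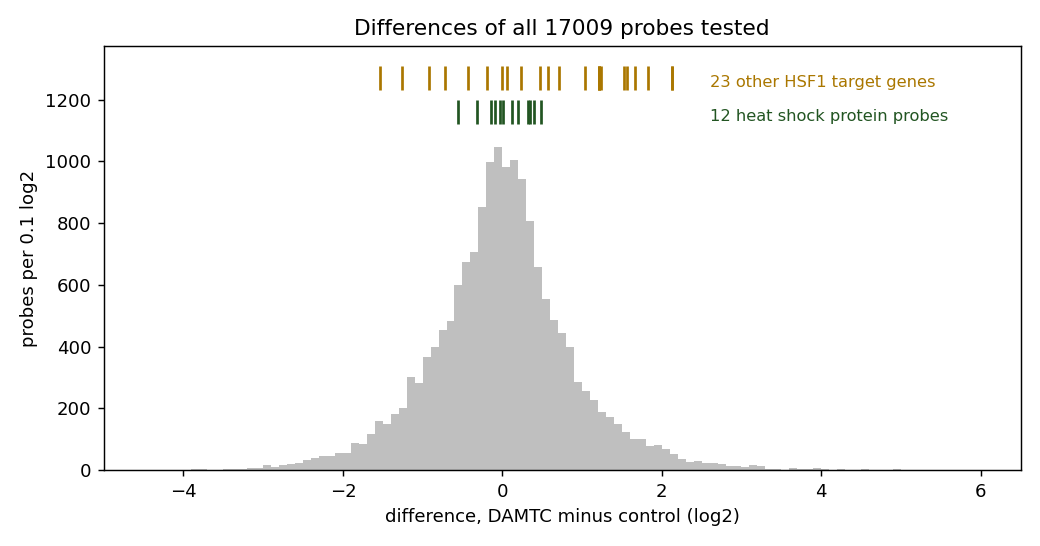
Histogram of the log2 difference of DAMTC minus control over all 17009 probes tested (x axis, in bins of 0.1; y axis, number of probes). The 12 heat shock protein probes, as green marks, lie between -0.56 and 0.49, and the 23 other HSF1 targets, as ochre marks, reach from -1.54 to 2.13.

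Among HSP90 co-chaperones, which load clients onto HSP90 or drive its ATP cycle, 6 of 23 tested genes rose, 2 fell and 15 did not pass, with a median of 0.36. Over all genes 12.3% rose and 12.9% fell. STIP1, FKBP4, CHORDC1 and AHSA1 are in this list and in that of HSF1 targets. FNIP2, which slows the ATPase of HSP90, rose 3.93-fold (1.97 ± 0.38, adjusted p = 0.00642) and CDC37L1, a relative of the kinase co-chaperone CDC37, rose 3.28-fold (1.71 ± 0.28, adjusted p = 0.00311). FKBP5, an immunophilin of steroid receptor complexes, rose by 1.33 ± 0.29 (adjusted p = 0.0121), a call lost without DAMTC replicate 2 (0.0574). STIP1, which bridges HSP70 and HSP90, read 9.95, 8.93 and 9.46 in controls and 10.26, 10.47 and 11.26 with DAMTC, and rose by 1.22 ± 0.36 (adjusted p = 0.0372). Its call held in 6 of 16 alternatives and, of the fits with 1 array left out, only without control replicate 1. The genes that fell were NUDCD2 and TTC4. The rises numbered 3 without DAMTC replicate 2 or DAMTC replicate 3, and the falls 0 without DAMTC replicate 3, 2 without control replicate 2 and 1 in each other such fit.

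The list of mitochondrial chaperones and proteases, with some import genes, covers the organelle in which TRAP1, HSPD1 and HSPE1 act. It had 1 rise and 4 falls among 20 tested genes, with a median of -0.23, where 25.2% of all genes passed in either direction. GRPEL1, the nucleotide exchange factor of mitochondrial HSP70, rose 4.02-fold (2.01 ± 0.26, adjusted p = 0.00110). OMA1, a stress-activated inner membrane protease, read 9.41, 8.23 and 8.46 in controls and 5.80, 6.61 and 6.36 with DAMTC. It fell 5.44-fold (-2.44 ± 0.36, adjusted p = 0.00207), and a second OMA1 probe read -2.36. SPG7 (-1.38 ± 0.27, adjusted p = 0.00751), an AAA protease of the inner membrane, LONP1 (-1.06 ± 0.32, adjusted p = 0.0414), the matrix protease, and DNAJA3 also fell. The call of LONP1 was lost without control replicate 2 or 3 or DAMTC replicate 1 or 2, and the falls numbered 2 in each of these fits. The rises numbered 2 without control replicate 1.

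The cytosolic chaperonin CCT, which folds actin and tubulin, and prefoldin together had 0 rises and 1 fall among 16 tested genes, with a median of 0.24. Over all genes 12.3% rose and 12.9% fell. At an unadjusted p under 0.05 with limma, 0 were higher and 2 lower, where 6183 of all 17009 probes lay under it in either direction. CCT6B fell 3.46-fold (-1.79 ± 0.36, adjusted p = 0.00760), and 2 genes fell without control replicate 1 or without control replicate 2. Of 15 tested HSF1 regulators and relatives of HSF1, 1 rose, 0 fell and 14 did not pass with limma, with a median of 0.26. At an unadjusted p under 0.05 with limma, 4 were higher and 2 lower, beside the same 6183 of 17009 probes. FBXW7, the ubiquitin ligase adaptor that marks HSF1 for degradation, rose 3.10-fold (1.63 ± 0.25, adjusted p = 0.00231), while a second FBXW7 probe read 0.26 (adjusted p = 0.568). In this list 3 rose and 1 fell without control replicate 1, and 1 fell without control replicate 2.

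**Figure D4:**
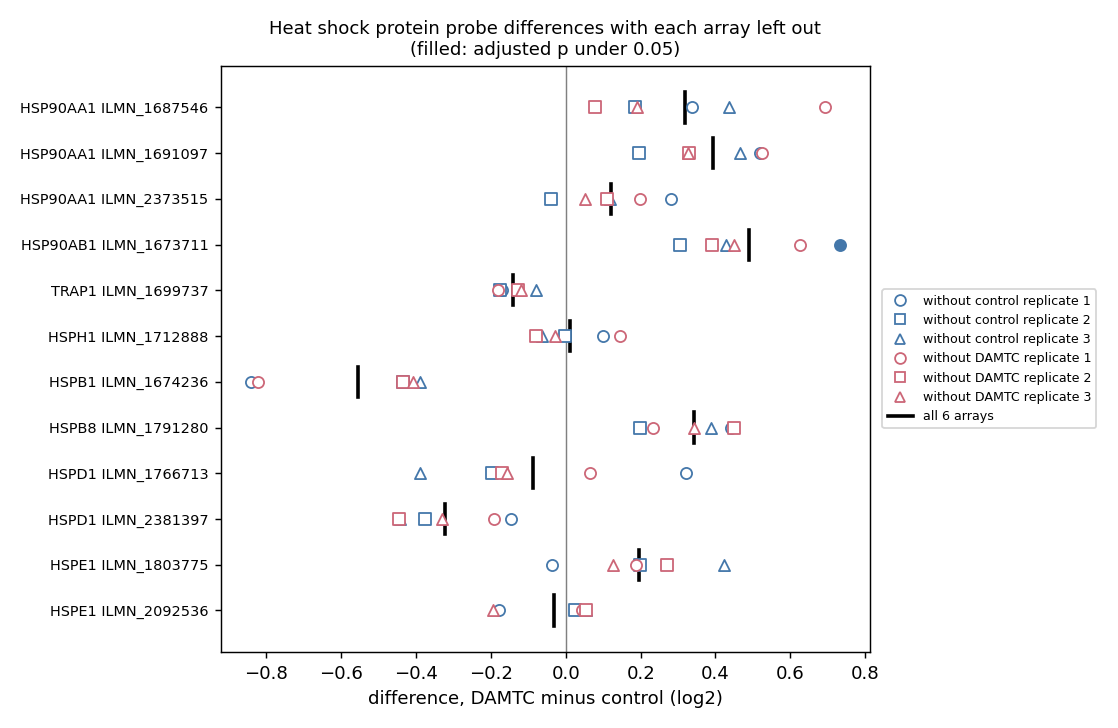
Log2 difference of DAMTC minus control (x axis) of the 12 tested heat shock protein probes (y axis) with each array left out in turn, blue for a control and red for a DAMTC array, with the black bar for all 6 arrays. The 1 filled symbol, HSP90AB1 without control replicate 1 at 0.73, passed at adjusted p under 0.05.

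Controls varied more than DAMTC arrays in 9 of the 12 tested probes, and in 68.7% of all probes. The control SD ran from 0.11 for TRAP1 to 0.74 for HSPD1 probe ILMN_1766713, against a median of 0.38 over all probes, and the DAMTC SD from 0.07 to 0.65, against 0.26. Leaving out control replicate 1 moved the HSP90AB1 difference up and the HSPB1 difference down, while it turned ILMN_1766713 positive, as the plot of differences with each array left out shows.

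The heat shock protein probe of smallest p was that of HSP90AB1. Over the 6 arrays, the genes whose brightest probe followed it most closely were GOLGB1, KLF10, CBX1, EED and RPAP3, with Pearson r from 0.993 to 0.996. Of 10656 genes compared, 106 had r above 0.95, and the points share the same arrays and normalization. The 5 genes differed by 0.81, 0.38, 0.92, 0.75 and 0.58 in that order, none of which passed (adjusted p from 0.172 to 0.363).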

How the data were processed

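RNA of 3 control and 3 DAMTC arrays was compared, with groups taken from the sample titles and columns matched by the BeadChip position in the labels. Per the file headers, the non-normalized table holds each probe's average bead intensity, on a linear scale, with a detection p-value, a bead count and a bead standard error, all deposited by the authors. BeadStudio is named per the submitters' processing notes, its version being not given in the sources used here. In the series matrix, the deposited intensity values were a straight line of the same bead intensities (largest residual 0.0107), background-subtracted and scaled to a common mean, with medians of 10.94, 9.339, 8.585, 8.992, 8.696 and 9.167 in array order.

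Intensities were background-corrected by nec of limma 3.58.1 in R 4.3.3 (background from detection p-values, offset 16), log2-transformed and then quantile-normalized. 1 probe ID that stood on several rows was averaged. Of 48803 probes, 27578 had 1 symbol, 13 had several and 21212 were not listed in the platform annotation. Entrez IDs were set against RefSeq, which changed 0 symbols. A probe was tested if its detection p lay under 0.05 on 3 or more of the 6 arrays; these were fitted with lmFit and eBayes and adjusted together by Benjamini-Hochberg. Genes of lists were represented by their brightest tested probe. For HBA1 the fold is a bound, taken against the mean over control arrays of whichever is higher, the dimmest detected probe's signal or that of HBA1. Signal over background limits what dim probes can show, and the number of arrays limits the precision. The path was tested on simulated data.

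The named genes are all probes of the 10 genes and, per list, up to 4 called genes, ranked by size of difference, or else the gene of smallest p. HSPA1A, HSPA1B, DNAJB1, HSPA8 and BAG3 were named in any case, as were the 5 genes most like the leading probe. Others named beside a small count were chosen after their values were seen. The genes and lists were chosen with earlier results of these data known.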

Additional observations from a re-analysis of the deposited data

How the results depend on the processing

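Over 16 alternatives the 12 heat shock protein probes gave 192 values, of which 3 passed and 16 had the other sign. With array weights 1 probe was higher (HSP90AB1) and 1 lower (HSPB1), against 40.3% of all probes called (3348 higher and 3500 lower), HSPD1 ILMN_1766713 read 0.41 and HSPE1 ILMN_1803775 -0.12. That fit also gave 4 falls of other HSF1 targets, 5 rises and 3 falls of HSF1 regulators, 4 rises of mitochondrial genes, 2 rises and 3 falls of chaperonin genes, 5 falls of epithelial markers and 2 rises and 1 fall of other markers. Median scaling put the median of all probes at -0.21 (3109 lower, 30.6% of calls higher against 50.2%), HSPH1 at -0.085, and 2 falls each among HSF1 regulators and chaperonin genes and 1 among other markers. The deposited values put that median at -0.15 (36.9% higher), HSPD1 ILMN_1766713 at 0.029, and 1 fall among HSF1 regulators, 2 each among chaperonin genes and epithelial markers and 1 among other markers. Other cell type markers had 1 rise in the main fit, that of HBA1, whose test is not read. They had 0 rises without background correction, with an offset of 50, with no filter, and with detection on all 6 arrays, where HBA1 was not tested. Counts of rises of other markers in these and the later fits do not leave out HBA1. Without a filter, 1 other HSF1 target and 2 mitochondrial genes fell. The causes of these shifts were not tested.

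With the replicate number as a block, 1185 probes were higher and 1139 lower, 0 of the 12 passed, 3 co-chaperones rose and 0 fell, 1 other HSF1 target fell and 2 mitochondrial genes fell. Deviations of same-numbered arrays correlated at -0.43, -0.42 and -0.20, and no array correlated best with its own number. The deviations were taken from the means of groups of 3 arrays, which ties the values together. They therefore cannot settle whether the numbers pair arrays.

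With each array left out, between 1191 and 2645 probes were higher and between 1092 and 2781 lower, and 0 to 1 of the 12 were higher. Rises ran from 3 to 7 and falls from 0 to 2 for co-chaperones, 5 to 11 and 0 to 4 for other HSF1 targets, 1 to 3 and 0 to 1 for HSF1 regulators, 1 to 2 and 2 to 4 for mitochondrial genes. Falls ran from 1 to 2 for chaperonin genes and 0 to 3 for epithelial markers, and rises from 0 to 2 for other markers. HSP90AA1 ILMN_2373515 ran from -0.039 to 0.28, HSPH1 from -0.080 to 0.14, HSPD1 ILMN_1766713 from -0.39 to 0.32, and HSPE1 from -0.036 to 0.42 (ILMN_1803775) and from -0.20 to 0.055 (ILMN_2092536).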
